A study of Mus musculus with 9 samples.

Results

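Acta1, Myh1, Myh2, Myh4, Tnnt3, Tnni2, Tnnc2, Mylpf, Ckm and Atp2a1, genes that together build and power the fast fibres of skeletal muscle, were followed through the transcriptome of the mouse aorta. They were chosen by name, as 10 of the 37668 genes of the deposited table, and all 10 were found in it. Of these 10, 4 reached 1 FPKM (fragments mapped to a gene, scaled to its transcript length and to the size of the library) in at least 1 group, as did 14225 genes of the whole table. The levels went against the name of the set in part: the 3 fast myosin heavy chains, which define these fibres, were at or near 0 in every group, whereas the fast troponin T gene Tnnt3 stood above 3 FPKM in each. The tissue from which these transcripts came was not tested.

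The study compared aortas in which the angiotensin II type 1a receptor gene was targeted in smooth muscle or in endothelium with aortas without that targeting. Sm22Cre aortas carried the floxed AT1ar allele and an SM22 Cre transgene, driven by the promoter of Tagln, a smooth muscle gene that the embryonic heart also transcribes. Cdh5Cre aortas carried the same floxed allele and a CDH5 Cre transgene, driven by the promoter of Cdh5, which encodes the cadherin of endothelial junctions and is also active in the endothelium that gives rise to blood cells. Floxed aortas carried the floxed AT1ar allele and no Cre. All groups therefore share the floxed allele, and all mice were males of 90 days on a 129T2SvEmsJ:C57Blk/6J background. There were 3 libraries per group, and the title of the series names Marfan syndrome, for which the labels give no allele.

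The authors deposited 1 FPKM value per group, so the spread between mice is not known, the sequencing depth is unknown, and no difference below could be tested. FPKM is scaled to transcript length, so levels of different genes can be set side by side. The values of all genes summed to 500015 FPKM in Sm22Cre, 604454 in Cdh5Cre and 495724 in floxed, and the 4 globin genes took 1.80% of that sum in Sm22Cre, 4.20% in Cdh5Cre and 0.808% in floxed. The globin shares rest in part on uncertain estimates, since Hba-a1, Hba-a2 and Hbb-bs had the status FAIL in every pair. The targeted gene Agtr1a stood at 1.21 FPKM in Sm22Cre, 1.32 in Cdh5Cre and 1.75 in floxed, values too low and too alike to check the labels. In whole aorta, fewer cells of a type and less RNA per cell cannot be told apart.

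In a striated muscle fibre, myosin heavy chains pull on actin filaments when calcium binds to the troponin complex, calcium is returned to its store by a calcium ATPase, and creatine kinase keeps ATP topped up during contraction. Vertebrates use separate genes for most of these parts in fast skeletal, slow skeletal, heart and smooth muscle. The wall of the aorta is built of smooth muscle, whereas its root adjoins the heart and its outer side can carry adjoining fat and muscle. Heart muscle shares the slow myosin and troponin C genes with slow skeletal fibres, and it also uses the muscle creatine kinase gene Ckm and some Acta1.

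The RefSeq promoter table held 8 of the 10 members, all but Tnnt3 and Tnni2. Shown here are the 250 bases before the start of transcription, 5′ to 3′ on GRCm38.p6, for Ckm and Acta1, the 2 members that differed most between groups on the log2(FPKM + 1) scale, and for Myh4, the lowest member. Ckm lies on the plus strand at chr7:19410844-19411093, Acta1 on the minus strand at chr8:123894776-123895025 and Myh4 on the plus strand at chr11:67237562-67237811. Capitals mark matches, on either strand, to 4 motifs of muscle promoters: the E-box (CANNTG), bound by the MyoD family, the MCAT motif (CATTCC), bound by TEAD factors, the CArG box, bound by serum response factor, and the MEF2 site.
Ckm: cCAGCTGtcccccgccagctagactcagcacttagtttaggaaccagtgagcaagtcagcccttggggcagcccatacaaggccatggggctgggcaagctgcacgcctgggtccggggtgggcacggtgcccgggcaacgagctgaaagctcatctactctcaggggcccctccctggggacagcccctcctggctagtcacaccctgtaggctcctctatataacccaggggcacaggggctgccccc
Acta1: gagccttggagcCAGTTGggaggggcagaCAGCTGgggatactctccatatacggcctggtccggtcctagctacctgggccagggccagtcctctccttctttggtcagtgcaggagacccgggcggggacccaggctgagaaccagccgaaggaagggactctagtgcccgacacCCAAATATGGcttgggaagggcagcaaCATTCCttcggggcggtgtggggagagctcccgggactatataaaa
Myh4: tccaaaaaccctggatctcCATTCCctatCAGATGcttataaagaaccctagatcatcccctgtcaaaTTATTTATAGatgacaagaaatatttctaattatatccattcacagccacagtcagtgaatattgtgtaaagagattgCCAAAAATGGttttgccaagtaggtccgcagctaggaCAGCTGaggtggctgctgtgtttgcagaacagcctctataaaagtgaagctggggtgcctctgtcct
Ckm held 1 E-box in this window, Acta1 2 E-boxes, 1 CArG box and 1 MCAT motif, and Myh4 2 E-boxes and 1 match to each of the other motifs, with no overlap between matches. Among all 32851 promoter windows of this length, 66.2% held an E-box, 12.6% an MCAT motif, 1.47% a CArG box and 2.92% a MEF2 site. Of the 8 members' windows, 6 held an E-box, 3 an MCAT motif (Acta1, Myh1 and Myh4), 2 a CArG box (Acta1 and Myh4) and 2 a MEF2 site (Myh1 and Myh4). A match is a description of the letters and not a site that was shown to be bound.

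Paralogues of these genes are abundant in the aorta, so the coding sequences of GENCODE M21 were compared to see how far a fragment of one gene could be taken for another. The pair of lines shows the 75 bases, the read length of the study, at which Ckm and its paralogue Ckb differ least, with the differing bases in capitals. The Ckm stretch lies in exon 5 at chr7:19416787-19416861, plus strand, and the Ckb stretch in exon 5 at chr12:111670902-111670976, minus strand. All coordinates in this comparison are on GRCm38.
Ckm: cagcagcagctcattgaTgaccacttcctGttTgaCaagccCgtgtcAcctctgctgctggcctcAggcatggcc
Ckb: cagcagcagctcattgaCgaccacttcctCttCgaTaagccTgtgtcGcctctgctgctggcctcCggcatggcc
Acta1 and the heart actin gene Actc1 were identical at 86.3% of 1131 coding bases, with no identical run over 29 bases and at least 3 differences in any 75 aligned bases. The smooth muscle actin gene Actg2 also differed from Acta1 at 3 or more of any 75 aligned bases. Ckm and the brain-type creatine kinase gene Ckb, the more abundant form in this tissue, were identical at 75.9% and differed at 7 or more of any 75 aligned bases. The fast myosins were closer to each other, with Myh1 and Myh2 identical at 91.0% of their coding bases and over 1 run of 268 bases. A stretch of 75 bases that reads the same in Myh1 (exon 14, chr11:67206513-67206587, plus strand) and in Myh2 (exon 13, chr11:67179535-67179609, plus strand) shows why single myosin values cannot be told apart fully:
Myh1 and Myh2: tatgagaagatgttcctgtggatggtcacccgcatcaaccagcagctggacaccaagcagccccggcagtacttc
Over whole transcripts, 20.9% of the 75-base windows of Myh1, 15.5% of those of Myh2 and 9.68% of those of Myh4 occurred exactly in a transcript of another gene. For Acta1 the share was 0.394%, and 3 of its windows occurred in Actb, a far more abundant actin gene. Actb stood at 1379 FPKM in Sm22Cre, 1402 in Cdh5Cre and 1347 in floxed, with status FAIL in every pair. For Tnnt3, Tnni2 and Mylpf no window was shared.

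**Figure D1:**
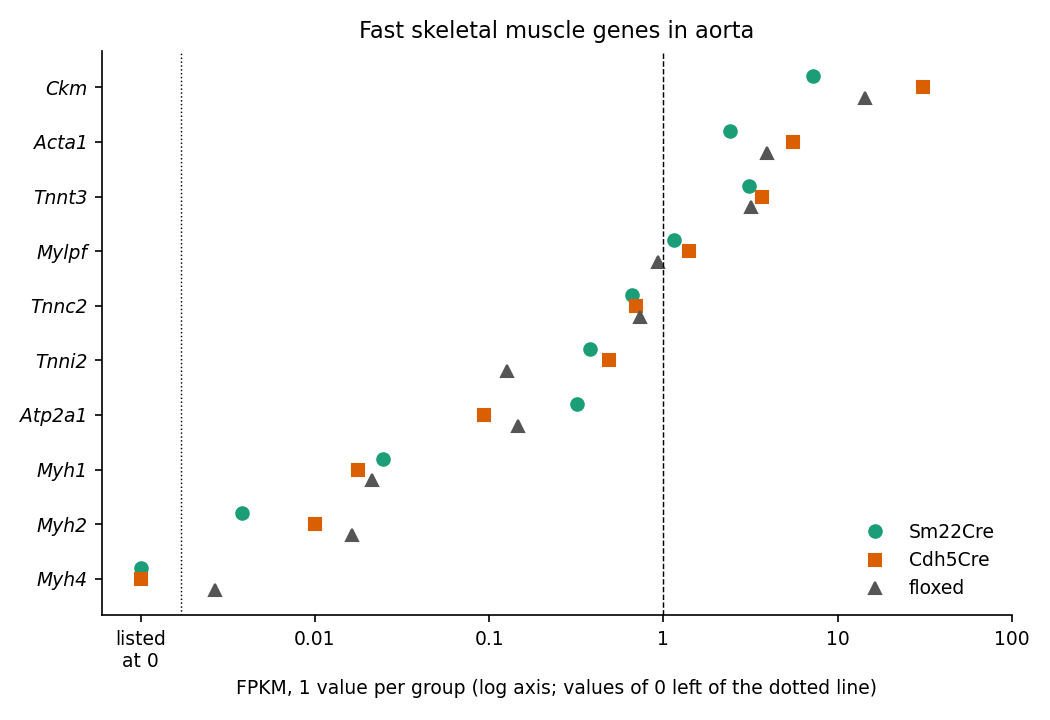
FPKM of the 10 genes on a log axis, 1 point per group (1 deposited value for 3 libraries), with values of 0 placed left of the dotted line and the dashed line at 1 FPKM. Ckm is the highest gene in all 3 groups, at 7.19, 31.0 and 14.3 FPKM in Sm22Cre, Cdh5Cre and floxed, and the 3 fast myosins lie below 0.03 FPKM.

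Transcripts of the 3 fast myosin heavy chains were practically missing, unlike those of the light chain genes Mylpf and Myl1 given below. Myh1 (ENSMUSG00000056328), the myosin heavy chain of type 2X fibres, stood at 0.0247 FPKM in Sm22Cre, 0.0176 in Cdh5Cre and 0.0213 in floxed. Myh2 (ENSMUSG00000033196), of type 2A fibres, stood at 0.00383 FPKM in Sm22Cre, 0.0100 in Cdh5Cre and 0.0163 in floxed. Myh4 (ENSMUSG00000057003), of type 2B fibres, was listed at 0 in Sm22Cre and Cdh5Cre and at 0.00268 in floxed. All 3 genes had the status NOTEST in every pair of groups, which the Cufflinks tools give to genes with too few aligned fragments. No order of the groups can be read from values this low. Myh1 and Myh2 share a listed locus on mm9 (chromosome 11, 66984529 to 67051075) and Myh4 lies beside it (67051314 to 67073948). The plot of the 10 levels shows the distance of these 3 genes from the other 7.

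The thin filament genes divided. Acta1 (ENSMUSG00000031972), which encodes skeletal muscle actin, stood at 2.41 FPKM in Sm22Cre, 5.58 in Cdh5Cre and 3.92 in floxed. Its level was 2.32-fold lower in Sm22Cre than in Cdh5Cre, 1.42-fold higher in Cdh5Cre than in floxed and 1.63-fold lower in Sm22Cre than in floxed. Tnnt3 (ENSMUSG00000061723), the fast form of the troponin subunit that binds tropomyosin, was nearly level, at 3.11 FPKM in Sm22Cre, 3.68 in Cdh5Cre and 3.20 in floxed. Acta1 thus spanned more than a doubling across the groups, whereas Tnnt3 moved little and stood above Acta1 in Sm22Cre only. The listed mm9 locus of Acta1 (chromosome 8, 122434260 to 126869624) is a bundle of 159 genes, so its coordinates do not describe Acta1 alone. Tnnt3 lies at chromosome 7, 149646714 to 149701914, with 2 other genes.

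The remaining 2 troponin subunits stayed under 1 FPKM. Tnnc2 (ENSMUSG00000017300), the calcium-binding subunit of fast fibres, stood at 0.663 FPKM in Sm22Cre, 0.694 in Cdh5Cre and 0.734 in floxed, a span of 1.11-fold between the lowest and the highest group. Of its 75-base windows 35.0% also occurred in transcripts of Ube2c, which shares its locus (chromosome 2, 164595398 to 164605467) and stood at 1.10 FPKM in Sm22Cre, 2.62 in Cdh5Cre and 1.24 in floxed. Tnni2, the inhibitory subunit of fast fibres (ENSMUSG00000031097, chromosome 7, 149627713 to 149630315), stood at 0.378 FPKM in Sm22Cre, 0.489 in Cdh5Cre and 0.126 in floxed. The Cdh5Cre level of Tnni2 was 3.88-fold that of floxed as a plain ratio, yet the difference amounted to less than 0.5 FPKM and to 0.40 on the log2(FPKM + 1) scale.

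Mylpf, the phosphorylatable myosin light chain of fast fibres (ENSMUSG00000030672, chromosome 7, 134355122 to 134357812), stood at 1.15 FPKM in Sm22Cre, 1.40 in Cdh5Cre and 0.937 in floxed. It shares its locus with no other gene. Atp2a1, the calcium pump SERCA1 of fast fibres (ENSMUSG00000030730, chromosome 7, 133572273 to 133606622), stood at 0.321 FPKM in Sm22Cre, 0.0934 in Cdh5Cre and 0.147 in floxed. It was the 1 member with its highest level in Sm22Cre apart from Myh1. Its status was FAIL in Sm22Cre against Cdh5Cre and against floxed, and NOTEST in Cdh5Cre against floxed. Of its 75-base windows 15.8% also occurred in Rabep2, a gene at the same locus at 11.3 FPKM in Sm22Cre, 12.1 in Cdh5Cre and 10.9 in floxed.

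Ckm, the muscle form of cytosolic creatine kinase (ENSMUSG00000030399, chromosome 7, 19996443 to 20006932), was the most abundant member and the most variable of the 4 that reached 1 FPKM. It stood at 7.19 FPKM in Sm22Cre, 31.0 in Cdh5Cre and 14.3 in floxed. The Sm22Cre level was 4.32-fold lower than that of Cdh5Cre and 1.99-fold lower than that of floxed, and the Cdh5Cre level was 2.17-fold higher than that of floxed. Its status was OK in all pairs, and the overlapping gene A930016O22Rik, which shares 8.26% of its 75-base windows, stood at 0.0443 FPKM in Sm22Cre, 0.0807 in Cdh5Cre and 0.0650 in floxed.

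The members' sum was therefore mostly Ckm and Acta1. The 10 genes summed to 15.2 FPKM in Sm22Cre, 43.0 in Cdh5Cre and 23.4 in floxed. Ckm and Acta1 made up 62.9% of that in Sm22Cre, 85.1% in Cdh5Cre and 77.9% in floxed. The other 8 genes summed to 5.65 FPKM in Sm22Cre, 6.39 in Cdh5Cre and 5.18 in floxed. The pair thus differed 3.82-fold between Sm22Cre and Cdh5Cre, while the sum of the 8 differed 1.13-fold. Tnnt3 was the largest item in that sum in each group.

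**Figure D2:**
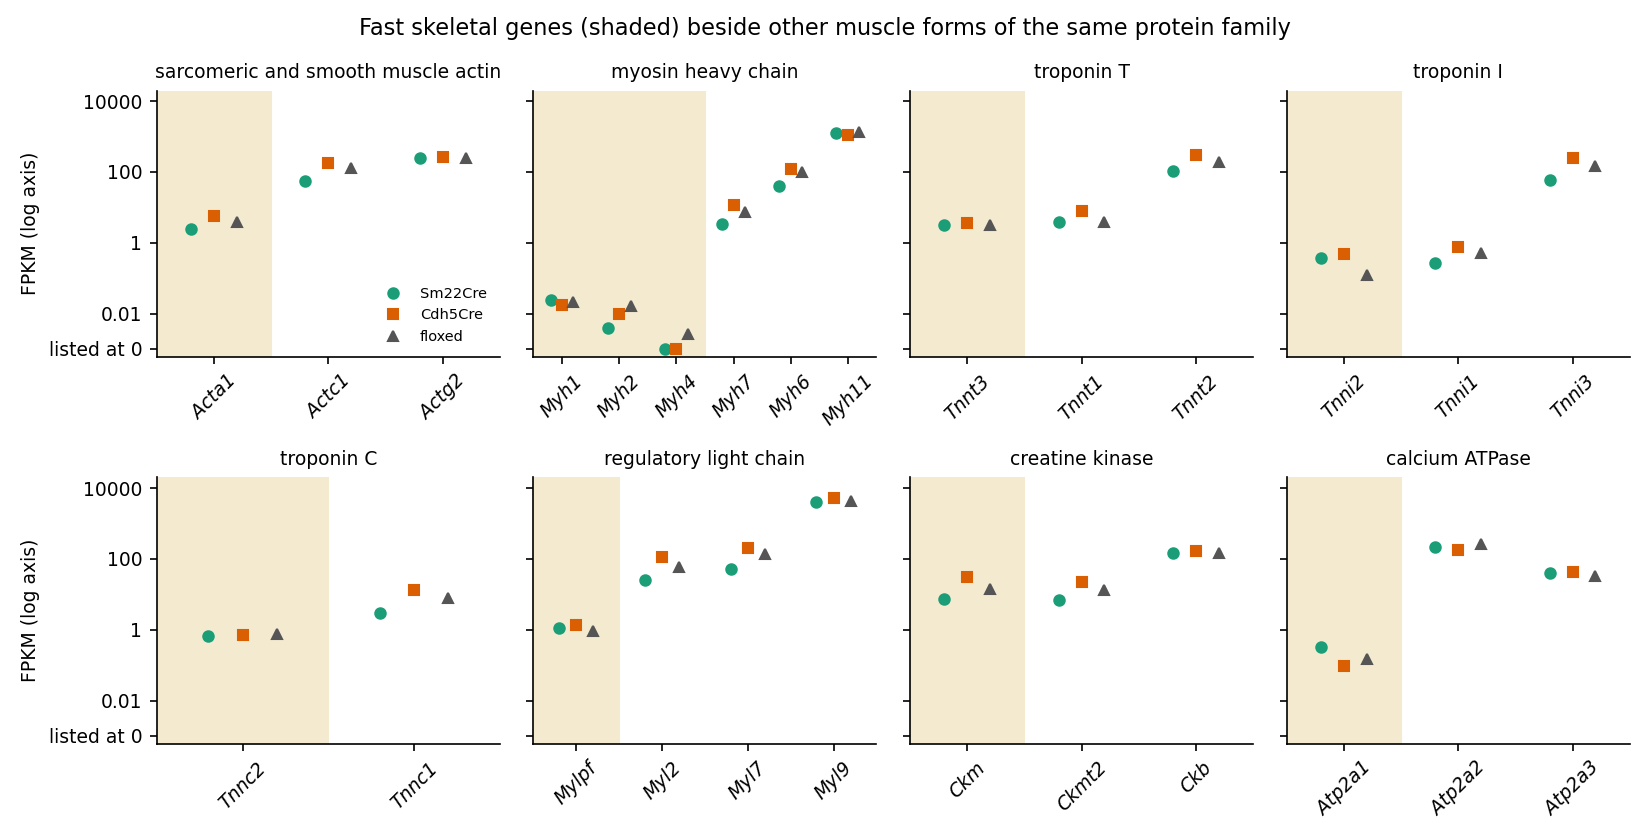
FPKM on a log axis for 8 protein families, with the fast skeletal genes shaded, 1 point per group (1 deposited value for 3 libraries). The slow, heart, mitochondrial or smooth muscle forms are to their right. In each family the shaded genes lie below at least 1 other form in all groups, for example Tnni2 at 0.378, 0.489 and 0.126 FPKM beside Tnni3 at 60.2, 240.7 and 144.6 in Sm22Cre, Cdh5Cre and floxed.

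Set beside other forms of the same protein family, each fast skeletal gene was below at least 1 of them in every group. Ckm nonetheless stood above the mitochondrial form Ckmt2 in every group, and Tnni2 above the slow form Tnni1 in Sm22Cre. The heart myosin gene Myh6 stood at 40.5 FPKM in Sm22Cre, 125.2 in Cdh5Cre and 97.3 in floxed, and the smooth muscle myosin gene Myh11 at 1267 in Sm22Cre, 1142 in Cdh5Cre and 1341 in floxed. The 3 fast myosins together came to 0.0704% of the Myh6 level in Sm22Cre, 0.0220% in Cdh5Cre and 0.0414% in floxed. Tnni2 came to 0.629% of the heart troponin I gene Tnni3 in Sm22Cre, 0.203% in Cdh5Cre and 0.0870% in floxed. Transcripts of these fast forms were thus far rarer than those of the heart form in each group. Tnnt3 came to 3.00% of the heart troponin T gene Tnnt2 in Sm22Cre, 1.19% in Cdh5Cre and 1.69% in floxed. Mylpf came to 4.63% of Myl2, the slow and ventricular light chain, in Sm22Cre, 1.21% in Cdh5Cre and 1.61% in floxed. Tnnc2 came to 21.8% of Tnnc1, the slow and heart troponin C, in Sm22Cre, 5.09% in Cdh5Cre and 9.07% in floxed. For Tnnt3, Mylpf and Tnnc2 these shares were highest in Sm22Cre, where the heart forms were lowest and the fast forms were near their level in the other groups. The shares rest in part on uncertain estimates: Tnni3 and Tnnt2 had the status FAIL in all 3 pairs, and Myl2 and Tnnc1 in both pairs with floxed. Atp2a1 came to at most 0.150% of Atp2a2, the calcium pump that smooth muscle also uses.

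Acta1 kept a steadier share of Actc1, and Ckm of Ckmt2. Acta1 came to 4.28% of the heart actin gene Actc1 in Sm22Cre, 3.06% in Cdh5Cre and 3.12% in floxed. Ckm was at 105.0% of the level of Ckmt2, the sarcomeric mitochondrial creatine kinase, in Sm22Cre, at 137.0% in Cdh5Cre and at 107.4% in floxed. Against the heart myosin gene Myh6, Ckm came to 17.7% in Sm22Cre, 24.8% in Cdh5Cre and 14.7% in floxed. Against Ckb, the form of smooth muscle and brain, it came to 4.99% in Sm22Cre, 18.2% in Cdh5Cre and 9.84% in floxed. Ckb itself was at 143.9 FPKM in Sm22Cre, 170.8 in Cdh5Cre and 145.4 in floxed, so the spread in that share came mostly from Ckm.

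A fixed rule of size was used for the comparisons, since no test was possible: a gene was counted when its ratio on log2(FPKM + 1) reached 2-fold, a scale that understates the differences of low genes. Members under 1 FPKM in every group cannot reach 2-fold on it, so only 4 of the 10 could be counted. In Sm22Cre against Cdh5Cre, 1 member was lower by that rule (Ckm, log2 ratio -1.97) and none was higher, beside 1.63% of the 14225 genes in either direction, 1.23% lower and 0.401% higher. Only 18 genes had a lower ratio than Ckm. Acta1 followed at -0.95, just short of the rule, with 218 genes below it. Tnnt3 (-0.19) and Mylpf (-0.16) lay nearer to 0, and their direction turned (to 0.17 and 0.26) when the trend of ratios on transcript length and GC content was removed. Over the 10 members the median was -0.069, with 7 below 0 and 2 above. Low values give small ratios on this scale, which holds medians over all members near 0. The 4 members at 1 FPKM or more had a median of -0.57, and the 14225 genes one of -0.0072. That subset of 4 was chosen by level, so its median supports nothing about the whole set.

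In Cdh5Cre against floxed, Ckm again was the 1 member past 2-fold of the 4 that could be counted. It was higher at a log2 ratio of 1.07, beside 1.89% of all genes in either direction, 1.19% higher and 0.703% lower. There were 135 genes with a higher ratio. Acta1 (0.42), Tnni2 (0.40) and Mylpf (0.31) came next, followed by Tnnt3 (0.16), and the other 5 lay between -0.069 and 0. The median over the 10 members was 0.076, with 5 above 0 and 5 below, and over the 4 at 1 FPKM or more it was 0.37, beside 0.017 over all genes. With each group divided by its FPKM sum, the ratio of Ckm was 0.79, and with the length and GC trend removed it was 0.94, so it no longer reached 2-fold under either setting.

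In Sm22Cre against floxed none of the 4 members that could be counted reached 2-fold, beside 0.633% of all genes in either direction, 0.302% higher and 0.33% lower. Ckm came closest at -0.90, with 59 genes below it, and Acta1 was at -0.53, with 150 genes below it. Tnni2 (0.29), Atp2a1 (0.20) and Mylpf (0.15) were slightly higher in Sm22Cre. The median was -0.011 over the 10 members and -0.28 over the 4, beside 0.0050 over all genes. The 3 comparisons share groups pairwise, so their ratios do not stand for independent evidence on each other.

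**Figure D3:**
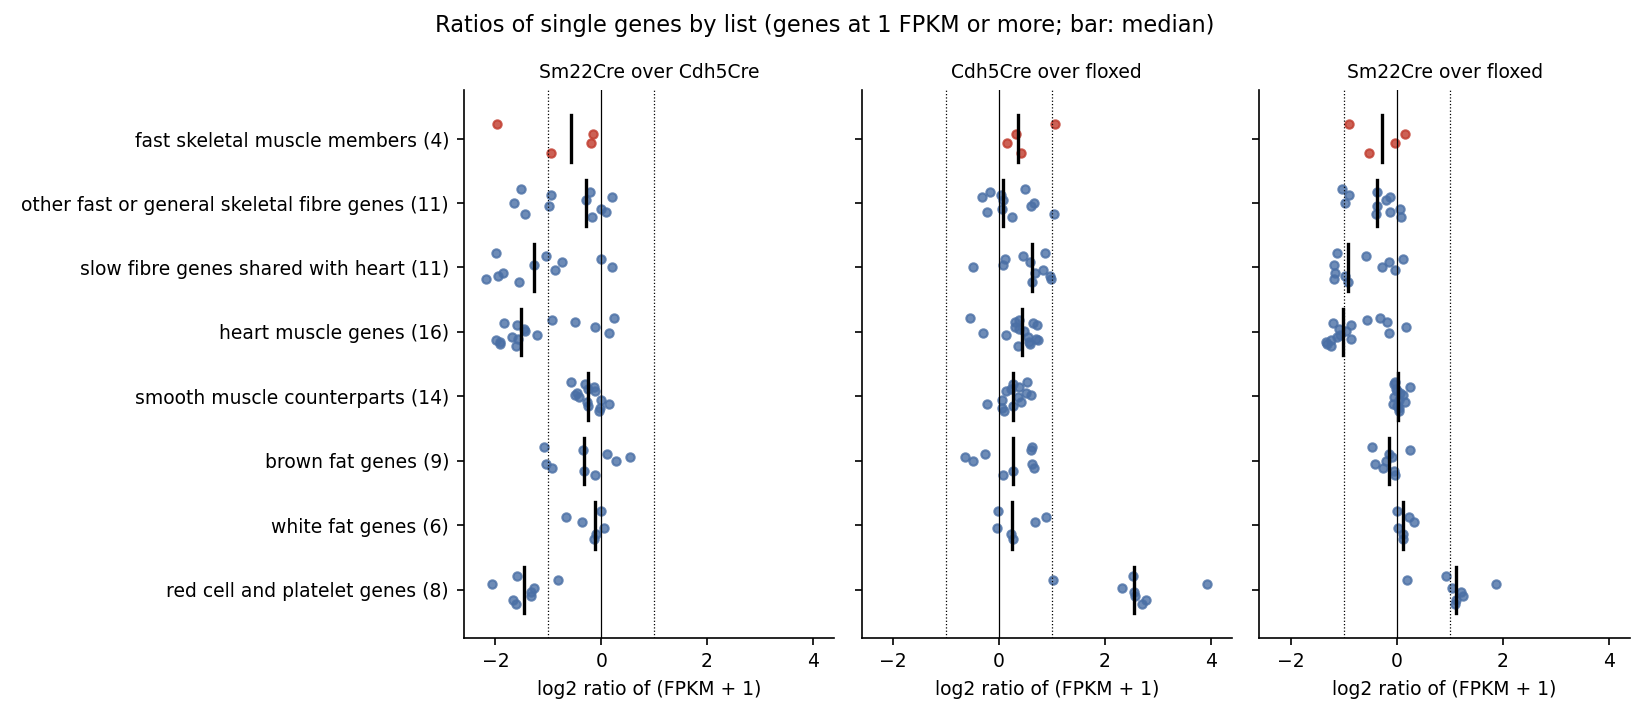
Log2 ratios of FPKM + 1 for single genes of 8 lists in the 3 comparisons, for genes at 1 FPKM or more in at least 1 group (number in brackets), with a bar at each list's median and dotted lines at 2-fold. Of the 4 fast skeletal members, from the left panel to the right, Ckm lies at -1.97, 1.07 and -0.90 and Acta1 at -0.95, 0.42 and -0.53, while the heart list has medians of -1.51, 0.43 and -1.03.

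Most markers of heart muscle differed in the same direction as Ckm and Acta1, as the plot of list ratios shows. All 16 genes of the heart list were measured, 12 of them with status OK in each comparison, none was at 0 in any group, and they summed to 787 FPKM in Sm22Cre, 1922 in Cdh5Cre and 1350.4 in floxed. In Sm22Cre against Cdh5Cre 11 of the 16 were lower by 2-fold and none higher, with a median log2 ratio of -1.51. Tnni3 was lowest at -1.98, Myl4, an atrial light chain, was at -1.91 and Actc1 at -1.68, but Tnni3 and Myl4 had the status FAIL in all 3 comparisons. Among genes with status OK Myl7, another atrial light chain, was lowest at -1.91, slightly above the -1.97 of Ckm. In that comparison 14 of the 16 were below 0 and 2 above, Tbx20 (0.24) and Ryr2 (0.15), a heart transcription factor and the heart calcium release channel. Hspb7, the most abundant of the list at 242.9 FPKM in Sm22Cre, 343.4 in Cdh5Cre and 277.6 in floxed, was at -0.50 in the same comparison. In Cdh5Cre against floxed none of the 16 reached 2-fold, with a median of 0.43 and a highest value of 0.73 for Tnni3, below the 1.07 of Ckm, and Tbx20 (-0.56) and Ryr2 (-0.31) were again the 2 that went the other way. That median was 0.19 with each group divided by its FPKM sum and 0.12 with the trend on length and GC content removed. In Sm22Cre against floxed 8 of 16 were lower by 2-fold, with a median of -1.03 and the lowest value in Myl4 (-1.34). The part of heart tissue in the differences of Ckm and Acta1 was not tested.

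The slow fibre genes that heart muscle shares behaved similarly. Of 12 genes 11 reached 1 FPKM, and 7 of these were lower by 2-fold in Sm22Cre than in Cdh5Cre. The median log2 ratio of the 11 was -1.27. Of the genes past 2-fold, Myh7, Myl3, Casq2 and Actn2 had the status FAIL in that pair. Among the 7 genes with status OK the median was -0.87, short of 2-fold. Myl2 was lowest in that comparison, at 24.9 FPKM in Sm22Cre and 115.9 in Cdh5Cre (58.2 in floxed). In Sm22Cre against floxed 4 of the 11 were lower by 2-fold (median -0.92), and in Cdh5Cre against floxed none reached it (median 0.63). Atp2a2, at 213.1 FPKM in Sm22Cre, 184.2 in Cdh5Cre and 259.6 in floxed, went the other way in the pairs with Cdh5Cre, at 0.21 in Sm22Cre over Cdh5Cre and -0.49 in Cdh5Cre over floxed. Tnni1, the slow skeletal troponin I, was under 1 FPKM in all groups.

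Among 27 other genes of fast or general skeletal fibres, 11 reached 1 FPKM, and in each group 16 or 17 stayed below it. Mybph, Pvalb, Ampd1, Cacng1, Jsrp1, Myh3, Myh8, Mybpc1 and Ryr1, which serve the sarcomere, calcium release and metabolism of skeletal fibres, were all under 0.1 FPKM in every group. In Sm22Cre against Cdh5Cre 3 of the 11 were lower by 2-fold. These were Pgam2, a muscle phosphoglycerate mutase (6.53 FPKM in Sm22Cre and 22.6 in Cdh5Cre), Myl1, a myosin light chain (7.01 in Sm22Cre and 20.8 in Cdh5Cre), and Smpx, a small muscle protein (2.39 in Sm22Cre and 8.74 in Cdh5Cre). In Cdh5Cre against floxed 1 of 11 was higher, Myl1, with 9.60 FPKM in floxed, and in Sm22Cre against floxed 1 was lower, Smpx, with 5.95 in floxed. The median log2 ratios of the 11 were -0.28, 0.065 and -0.38 in Sm22Cre over Cdh5Cre, Cdh5Cre over floxed and Sm22Cre over floxed. Among genes with status OK they were -0.96 (8 genes), 0.27 (8 genes) and -0.38 (9 genes).

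Several genes named for skeletal muscle were abundant in the aorta, and none of those given here reached 2-fold on log2(FPKM + 1). Tcap, which encodes the titin cap protein of striated muscle, stood at 375.4 FPKM in Sm22Cre, 435.6 in Cdh5Cre and 488.8 in floxed, the highest of the 27, with its lowest log2 ratio of -0.38 in Sm22Cre over floxed. Casq1, the calcium-storing calsequestrin of fast fibres, stood at 72.3 FPKM in Sm22Cre, 72.7 in Cdh5Cre and 69.9 in floxed, with status FAIL in every pair. The listed locus of Casq1 holds 2 genes. Pygm, the muscle glycogen phosphorylase, stood at 45.1 FPKM in Sm22Cre, 55.0 in Cdh5Cre and 52.5 in floxed, with status FAIL in both pairs with Cdh5Cre. Eno3 stood at 18.6 FPKM in Sm22Cre, 37.6 in Cdh5Cre and 24.4 in floxed, with status OK in every pair. Its log2 ratio was -0.98 in Sm22Cre over Cdh5Cre, just short of 2-fold, and that of Myom2 was -0.94. As plain FPKM ratios, Eno3 was 2.02-fold and Myom2 2.18-fold lower there. In that comparison 9 of the 11 genes at 1 FPKM or more were below 0 and 2 above. Casq1, Pygm, Eno3 and Myom2 were picked out after their values were seen. In the 3 groups the listed levels of Casq1 differed by at most 1.04-fold.

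Genes of muscle stem cells and of the nerve-muscle contact were mostly absent. Among myogenic and satellite cell genes, Six4, which is not restricted to muscle, stood at 1.73 FPKM in Sm22Cre, 1.06 in Cdh5Cre and 1.54 in floxed. Myod1 and Myog, which drive myogenic differentiation, were listed at 0.018 FPKM in Sm22Cre and at 0 in Cdh5Cre and floxed, and Pax7, the satellite cell factor, was listed at 0 in Sm22Cre and floxed. Of 8 genes of the neuromuscular junction, the receptor subunit genes Chrnd and Chrng were listed at 0 in every group, and Chrnb1 (8.22 FPKM in Sm22Cre, 9.46 in Cdh5Cre and 8.01 in floxed) and Dok7 (1.14 in Sm22Cre, 1.52 in Cdh5Cre and 2.12 in floxed) reached 1 FPKM. Of the genes named here for stem cells or the junction, Six4, Chrnb1 and Dok7 did not reach 2-fold in any comparison. The others were too low to reach 2-fold on log2(FPKM + 1).

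Fat, blood, endothelial and fibroblast markers were read beside the members as well. The 10 brown fat genes, of a tissue that shares part of the muscle lineage, summed to 263.5 FPKM in Sm22Cre, 397.8 in Cdh5Cre and 303.1 in floxed. In Sm22Cre against Cdh5Cre 2 of the 9 that reached 1 FPKM were lower by 2-fold, Fabp3 and Cox7a1, both of which heart muscle expresses too. Cox8b, the most abundant of the list, was at 54.8 FPKM in Sm22Cre, 104.7 in Cdh5Cre and 66.3 in floxed. Its log2 ratio was -0.92 in Sm22Cre over Cdh5Cre, where 3 of the 9 genes were above 0. Ucp1, the defining brown fat protein, was at 62.0 FPKM in Sm22Cre, 67.4 in Cdh5Cre and 63.8 in floxed. The 7 white fat genes had none past 2-fold, with medians between -0.12 and 0.24. The 8 red cell and platelet genes summed to 9099 FPKM in Sm22Cre, 25673 in Cdh5Cre and 4057 in floxed, and thus differed in a different order of groups from Ckm, which was lowest in Sm22Cre. All 8 of them were higher by 2-fold in Cdh5Cre than in floxed (median log2 ratio 2.56), 7 were lower in Sm22Cre than in Cdh5Cre (median -1.47) and 6 were higher in Sm22Cre than in floxed (median 1.11). Hba-a1, Hba-a2, Hbb-bs and Alas2 had the status FAIL in every pair. Among the 4 genes with status OK the medians were 2.54, -1.47 and 1.07 in the same order. Of 8 endothelial genes 4 were higher by 2-fold in Cdh5Cre than in floxed (median 0.75), the comparison in which Ckm was also higher, and none reached it elsewhere. Egfl7, among these 4, had the status FAIL in that comparison. Of 8 fibroblast genes 2 were lower by 2-fold in Sm22Cre than in Cdh5Cre (median -0.73) and 2 higher in Cdh5Cre than in floxed (median 0.64). These were Pi16 and Clec3b both times, with status FAIL for Pi16. Only 3 of the 8 fibroblast genes had status OK in each comparison. The part of these tissues in the members' differences was not tested.

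Of the smooth muscle counterparts all 14 were measured and none reached 2-fold in any comparison. They summed to 18617 FPKM in Sm22Cre, 22992 in Cdh5Cre and 18623 in floxed. Actb, Actg1, Myh9 and Myh10, which are in the list, are not restricted to smooth muscle. Status was OK for 7 of the 14 in each pair with Cdh5Cre and for 9 in Sm22Cre against floxed. Myl9, the smooth muscle light chain, was the most abundant at 4056 FPKM in Sm22Cre, 5407 in Cdh5Cre and 4213 in floxed, with status FAIL in every pair. Tpm2 had the largest ratio of the list in Sm22Cre against Cdh5Cre (-0.57) and Myl6 in Cdh5Cre against floxed (0.61). Their median log2 ratios were -0.25 in Sm22Cre over Cdh5Cre, 0.26 in Cdh5Cre over floxed and 0.021 in Sm22Cre over floxed. The main smooth muscle actin gene Acta2 had no usable estimate and was left out. With each group divided by its FPKM sum, a setting that moved the median of all genes to 0.23 and -0.22 in the first and second of these comparisons, the list's medians there turned to 0.022 and -0.026.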

How the data were processed

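RNA of frozen aorta was made into stranded poly-A libraries and sequenced as paired 75-base reads, per the labels' protocols. Mouse build mm9 is named in the submitters' processing notes beside Cufflinks 1.3.0, SAMtools 0.1.7, Bowtie2 2.1.0 and TopHat2 2.0.8, whose roles and options are not given in the sources used here. The authors deposited FPKM per group and pair of groups, 113004 rows for 37668 genes in 3 pairs, with the 3 libraries of a group already combined and no value per library. A group's value differed between its 2 pairs in 15 genes, none of them a member.

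Ensembl IDs were matched to symbols with GENCODE M21 (32638 of 37668). Listed starts were taken as counted from 0, since end minus start equalled the gene's length in 12013 loci of 1 gene, against 302 for that difference plus 1. Genes at 1 FPKM or more in at least 1 group were analysed, after removal of 7 with status HIDATA, among them Acta2. Ratios were computed on log2(FPKM + 1) and folds as plain FPKM ratios, with pandas 2.3.3 and numpy 2.4.6 under Python 3.11.15. The call rule was tested on simulated data. Genes considered for naming outside the members were the most abundant of each list and the one with the largest ratio in each comparison. Not all of these are named. Further genes are named for reaching 2-fold, for going against their list, or as paralogues or overlapping genes. Others are named by a level of 0 or a low level, or as described where they appear. The members and the 12 lists were chosen with earlier results of these data known. Coding sequences were aligned with Biopython 1.88, and 75-base windows were matched on both strands over all GENCODE M21 transcripts. Plots were drawn with matplotlib 3.10.9. Some items are not reported here. Other pseudocounts, filters, scalings and a trend removal were tried.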

Additional observations from a re-analysis of the deposited data

How the results depend on the processing

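No paired analysis was possible because the deposited values are 1 per group and the groups share no replicate number. For the same reason no library could be left out. Over 9 other settings and 3 comparisons, the number of members past 2-fold was within 1.5 times of that reported in 24 of 27 values. It was 2 in Sm22Cre over Cdh5Cre with a pseudocount of 0.1 FPKM, where Acta1 reached -1.18. It was 0 in Cdh5Cre over floxed with each group divided by its FPKM sum and with the trend on length and GC content removed. Some settings could not change this number, so 24 of 27 overstates its stability. All 4 members at 1 FPKM or more had status OK, and no member differed between pairs. Without the filter, the added members were too low to reach 2-fold on log2(FPKM + 1). The median of the members stayed on its side of 0 and of 2-fold in 25 of 27 values. It was -1.46 in Sm22Cre over Cdh5Cre among genes at 5 FPKM or more, where only Ckm and Acta1 were left, and -0.066 in Cdh5Cre over floxed with the trend removed. The restriction to status OK and the values of the other pair could not change this median either. The cause was not tested for the changes with scaling and trend. Across all settings the ratio of Ckm lay between -2.10 and -1.71 in Sm22Cre over Cdh5Cre, between 0.79 and 1.11 in Cdh5Cre over floxed and between -0.98 and -0.90 in Sm22Cre over floxed. Acta1 lay between -1.18 and -0.58, between 0.023 and 0.50 and between -0.68 and -0.52 in the same comparisons. Tnnt3 and Mylpf changed sign with the trend removed in Sm22Cre over Cdh5Cre (0.17 and 0.26) and in Cdh5Cre over floxed (-0.24 and -0.16), and Tnnt3 did so with division by the FPKM sum (0.022 and -0.064). Depth is unknown, so values under 1 FPKM carry no stated precision.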
